A study of Homo sapiens with 9 samples.

Results

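The anaphase-promoting complex or cyclosome (APC/C) is the ubiquitin ligase that starts anaphase and ends mitosis by marking proteins such as securin and the B-type cyclins for destruction. A core of fixed subunits carries a cullin-like scaffold and a RING protein, an activator (CDC20 in mitosis, FZR1 from late mitosis into G1) brings the substrates, and dedicated E2 enzymes supply the ubiquitin. The genes described here are 10 of this system, taken by their symbols from the 60966 genes of the deposited tables: the subunits ANAPC1, ANAPC2, ANAPC11 and CDC27, the activators CDC20 and FZR1, the E2 enzymes UBE2C and UBE2S, the inhibitor FBXO5 and the substrate PTTG1. They were chosen by name and role, with earlier results of these data known, and they hold 106 of the 244443 listed transcripts.

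RNA-seq was performed in H1299 cells, an established human lung cancer cell line, in 3 groups of 3 samples each. Control cells were transfected with a scrambled siRNA (Scramble), and FIBP-depleted cells with 1 of 2 siRNAs against FIBP (Si-FIBP#1 or Si-FIBP#2). All groups were of 1 cell line grown and transfected by the same stated protocol. The labels number the samples as replicates without saying what separated them. The p-values therefore measure the spread between these samples, which may be technical. Libraries came from poly(A)-selected RNA read from both ends. Values are FPKM (fragments scaled to transcript length and to the size of the library). Being per length, they allow only a rough comparison between genes. Gene values are sums over transcripts whose shares were estimated, many of them short, and use of strand is not given. The tables hold no counts. From the steps between low values, 20150000 to 24050000 fragments per library were estimated, and 13894 to 14715 genes reached 1 FPKM in a sample.

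The targeted gene was measured first. FIBP was at 88.38, 79.49 and 77.74 FPKM in Scramble, at 7.49, 7.77 and 4.30 FPKM after Si-FIBP#1, and at 7.13, 5.92 and 8.21 FPKM after Si-FIBP#2. Every depleted sample lay far below every Scramble sample, and the log2 fold change was -3.50 after Si-FIBP#1 (limma, Benjamini-Hochberg adjusted p = 9.40e-07) and -3.36 after Si-FIBP#2 (adjusted p = 1.42e-06). As for the labelled cell type, the keratin genes KRT8 (67.15 to 108.14 FPKM) and KRT18 (142.89 to 483.13 FPKM) were present in all samples, and so was the mesenchymal gene VIM (1592 to 3369 FPKM), while the other mesenchymal genes COL1A1, COL1A2 and DCN reached at most 1.59, 0.02 and 1.42 FPKM. The epithelial genes EPCAM and KRT19 and the lung genes NKX2-1, NAPSA and SFTPB stayed at or below 0.66 FPKM and CDH1 was listed at 0 in every sample. Blood and endothelial markers reached at most 0.41 FPKM.

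Of the 10 genes, 9 had a RefSeq promoter entry under their symbol (GRCh38.p14), with 15 windows between them. Their starts were not matched to those of the transcripts measured. The ANAPC1 window is set on a start at 111884193, while the main ANAPC1 transcript starts at 111884690. Each window runs from 250 bases before to 50 bases after an annotated start. UBE2C had no entry. The windows were searched on both strands for 3 short motifs of cell cycle promoters: the CCAAT box (CCAAT), the cell cycle genes homology region or CHR (TTTGAA or TTCGAA) and an E2F site (TTCCCGC). Among 34943 windows of this length, 34.6% held a CCAAT box, 16.4% a CHR, 6.54% an E2F site and 6.40% both of the first. Of the 15 windows, some of which overlap, 9 held a CCAAT box, 4 a CHR, 4 an E2F site and 2 both of the first. By gene, CCAAT boxes lay in windows of CDC20, UBE2S, FBXO5 and PTTG1, which fell, and of the core subunits ANAPC11 and CDC27. None lay in windows of ANAPC1, ANAPC2 or FZR1. CHR matches lay in windows of ANAPC1, CDC20, FZR1 and FBXO5, and E2F sites in windows of ANAPC11, CDC27 and FZR1. The windows with a CCAAT box and a CHR together were those of CDC20 and of 1 FBXO5 start. These are letter matches only, and binding was not measured.

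Stretches upstream of the start, outside annotated exons, are shown for 3 genes that fell after FIBP depletion (CDC20, FBXO5 and PTTG1) and for 2 core subunits: CDC27, which holds a CCAAT box, and ANAPC2, the one gene of the 9 with none of the motifs. Both FBXO5 starts are shown because they differ in motif content. Sequences run 5′ to 3′ on the gene's strand, and capitals mark matches to a motif on either strand, so that ATTGG is CCAAT and TTCAAA is TTTGAA read from the other strand.
CDC20, chr1:43358810-43358954, plus strand: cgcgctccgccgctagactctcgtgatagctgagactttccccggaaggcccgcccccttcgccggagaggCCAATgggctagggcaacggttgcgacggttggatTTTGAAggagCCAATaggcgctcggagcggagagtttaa
FBXO5, inner start, chr6:152983042-152983186, minus strand: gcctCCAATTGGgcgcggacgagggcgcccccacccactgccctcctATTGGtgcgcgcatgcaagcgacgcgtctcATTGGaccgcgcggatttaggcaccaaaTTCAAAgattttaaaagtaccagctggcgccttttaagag
FBXO5, outer start, chr6:152983580-152983724, minus strand: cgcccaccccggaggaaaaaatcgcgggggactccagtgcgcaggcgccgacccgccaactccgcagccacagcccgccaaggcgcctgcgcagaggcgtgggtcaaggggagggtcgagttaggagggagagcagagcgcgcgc
PTTG1, chr5:160421712-160421821, plus strand: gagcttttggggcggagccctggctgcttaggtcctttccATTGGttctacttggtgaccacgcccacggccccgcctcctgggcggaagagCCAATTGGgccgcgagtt
CDC27, chr17:47189423-47189545, minus strand: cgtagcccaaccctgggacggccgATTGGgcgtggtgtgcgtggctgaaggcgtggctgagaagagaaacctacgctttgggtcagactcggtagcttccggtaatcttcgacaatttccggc
ANAPC2, chr9:137188561-137188646, minus strand: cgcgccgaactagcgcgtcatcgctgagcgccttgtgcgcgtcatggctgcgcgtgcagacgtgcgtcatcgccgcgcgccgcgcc
Counted from the start site, the CDC20 stretch held CCAAT boxes from -100 to -96 and from -55 to -51 with a CHR between them from -65 to -60, and the rest of its window held another CHR from -178 to -173. In the inner FBXO5 window the CHR lay from -40 to -35 and the 4 CCAAT matches lay upstream of it, 2 of them overlapping on opposite strands. PTTG1 held 3 CCAAT matches around its first start, 2 of which overlap in the same way, and no CHR. The CDC27 stretch runs from -250 to -128, since nearer bases are annotated as exon, and its CCAAT match lay from -226 to -222, while the E2F site of that window, from -62 to -56, is not in the stretch shown. The single CCAAT match of UBE2S lay from -191 to -187. In windows of the core subunit ANAPC11, also not shown, a CCAAT match lay from -68 to -64 of the start at 81890790. The Ensembl transcript that begins there, ENST00000571570, was at 0 FPKM in every sample. The matches from -44 to -40 of the start at 81891713 and from -54 to -50 of that at 81891723 are the same site, seen in overlapping windows. Whether any of these matches bears on the changes in level was not tested. The outer FBXO5 window and the ANAPC2 window held none of the motifs.

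Depletion of FIBP was followed by lower levels of CDC20, both E2 enzymes, FBXO5 and PTTG1, while no core subunit of the 10 changed by 2-fold. Genes were called at a fold change over 2 and a false discovery rate (FDR) below 0.05. After Si-FIBP#1, 5 of the 10 genes were called lower (CDC20, UBE2C, UBE2S, FBXO5 and PTTG1), against 3.11% of the 14985 genes tested. After Si-FIBP#2, 3 were called lower (CDC20, UBE2C and FBXO5), against 2.13% of all genes, and none was called higher with either siRNA, against 2.55% and 2.92% of all genes. With both siRNAs together against Scramble 4 were called lower, against 2.45% of all genes, the fourth being UBE2S. At an FDR below 0.05 without the fold threshold, Si-FIBP#1 gave 6 lower genes (background 19.9%) and 1 higher (27.8%), and Si-FIBP#2 gave 5 lower (17.7%) and none higher (31.1%). For 5 genes, all 6 depleted samples lay below all 3 Scramble samples, which held for 16.5% of all genes. The comparisons with Scramble share their control samples. All 10 genes passed the filter of at least 1 FPKM in at least 3 samples.

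**Figure D1:**
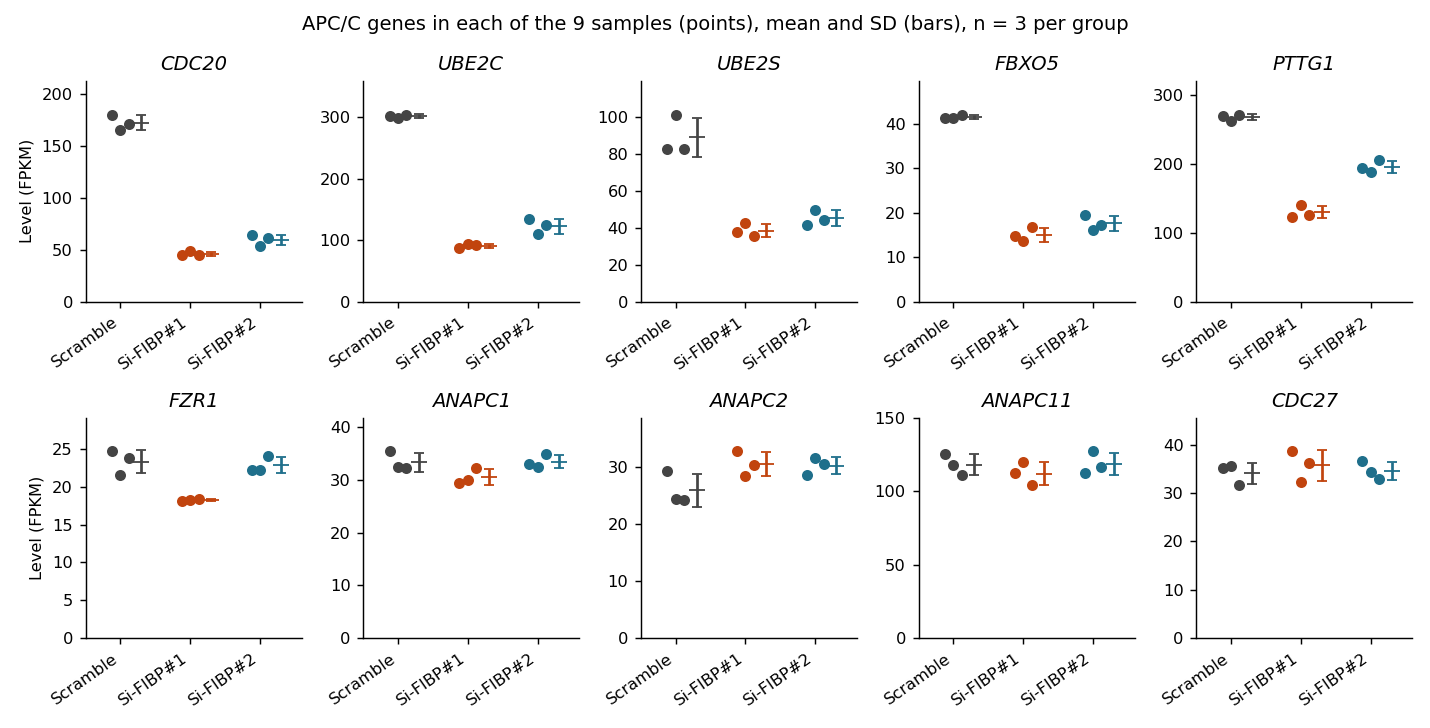
Level (FPKM, linear axes starting at 0) of the 10 APC/C genes in each of the 9 samples, as points, with the group mean and SD (n = 3 per group) as a bar beside them. The upper row holds the 5 genes whose depleted samples all lie below the Scramble samples, such as CDC20 at 172 FPKM on average in Scramble and 45.9 and 59.3 FPKM after depletion. In the lower row the groups overlap in at least 1 comparison for every gene.

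Of the activators, CDC20 fell the most of the 10 genes with both siRNAs, and FZR1 fell by under 2-fold after Si-FIBP#1. CDC20 (ENSG00000117399; chromosome 1, 43358955 to 43363203, plus strand, GRCh38) binds the APC/C when the spindle checkpoint is satisfied and brings securin and the B-type cyclins to it. Its level was 179.80, 165.44 and 170.67 FPKM in Scramble, 44.71, 48.13 and 44.85 FPKM after Si-FIBP#1 and 63.55, 53.72 and 60.64 FPKM after Si-FIBP#2. The 3 groups did not overlap, and the Si-FIBP#1 samples were the lowest. Group means were 172 ± 7.27 FPKM for Scramble, 45.9 ± 1.94 FPKM for Si-FIBP#1 and 59.3 ± 5.05 FPKM for Si-FIBP#2 (SD, n = 3 each). The log2 fold change was -1.88 after Si-FIBP#1 (95% interval -2.03 to -1.73, limma, adjusted p = 3.06e-07) and -1.52 after Si-FIBP#2 (-1.67 to -1.37, adjusted p = 6.69e-07). As these are bulk samples, fewer cells in the phase that expresses a gene and less of its RNA per cell cannot be told apart.

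FZR1 (ENSG00000105325; chromosome 19, 3506273 to 3538330, plus strand) encodes the activator also known as CDH1, a different gene from the cadherin of that symbol, which keeps the APC/C active in G1. It was at 24.68, 21.60 and 23.74 FPKM in Scramble, at 18.10, 18.23 and 18.40 FPKM after Si-FIBP#1, and at 22.28, 22.23 and 24.13 FPKM after Si-FIBP#2. The Si-FIBP#1 samples lay below all others, while the Si-FIBP#2 samples lay within the Scramble range. FZR1 fell by 0.34 on the log2 scale after Si-FIBP#1 (limma, adjusted p = 0.00219), and its log2 difference after Si-FIBP#2 was -0.03 (95% interval -0.17 to 0.12, adjusted p = 0.763). Its main transcript, ENST00000441788, was lower with both siRNAs. It was at 9.39 to 11.16 FPKM in Scramble, 7.72 to 8.62 FPKM after Si-FIBP#1 and 7.04 to 8.56 FPKM after Si-FIBP#2. The next by level, ENST00000395095, MSTRG.13157.1 and ENST00000588084, averaged 6.90, 4.29 and 0.32 FPKM in Scramble. After Si-FIBP#2 they averaged 7.05, 5.06 and 2.22 FPKM, so the gene sum hides a fall of the main transcript. Within each sample, CDC20 was 7.29, 7.66 and 7.19 times as high as FZR1 in Scramble, and 2.47, 2.64 and 2.44 times after Si-FIBP#1. After Si-FIBP#2 the ratio was 2.85, 2.42 and 2.51. These ratios, of FPKM and therefore per length, were 7.38 ± 0.25, 2.52 ± 0.11 and 2.59 ± 0.23 (SD, n = 3 each) and are given as a description.

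Both E2 enzymes fell after each siRNA. UBE2C (ENSG00000175063; chromosome 20, 45812576 to 45816957, plus strand) starts ubiquitin chains on APC/C substrates. It was the most abundant of the 10 genes in Scramble, at 302.65, 297.84 and 304.08 FPKM. After Si-FIBP#1 it was at 86.88, 93.19 and 91.21 FPKM and after Si-FIBP#2 at 133.80, 109.27 and 124.84 FPKM. The 3 groups were again separate, in the order Scramble, Si-FIBP#2, Si-FIBP#1. The log2 fold change was -1.73 after Si-FIBP#1 (95% interval -1.88 to -1.57, limma, adjusted p = 3.79e-07) and -1.30 after Si-FIBP#2 (-1.45 to -1.14, adjusted p = 1.29e-06).

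UBE2S (ENSG00000108106; chromosome 19, 55399745 to 55407777, minus strand) lengthens the chains that UBE2C begins. Its samples were at 82.79, 101.18 and 82.56 FPKM in Scramble, at 37.48, 42.47 and 35.24 FPKM after Si-FIBP#1, and at 41.67, 49.80 and 44.31 FPKM after Si-FIBP#2. The depleted groups overlapped each other but not Scramble. Log2 fold changes were -1.19 after Si-FIBP#1 (95% interval -1.41 to -0.96, limma, adjusted p = 1.54e-05) and -0.95 after Si-FIBP#2 (-1.18 to -0.73, adjusted p = 6.24e-05), the latter 1.94-fold and so short of the fold threshold. It passed 2-fold after Si-FIBP#2 under median ratio scaling (-1.08) and without Scramble replicate 1, Scramble replicate 3 or Si-FIBP#2 replicate 2 (-1.002, -1.004 and -1.02). Its main transcript, ENST00000264552, was steadier than the gene in Scramble, at 70.13, 71.47 and 69.59 FPKM, and was at 33.49, 35.84 and 34.22 FPKM after Si-FIBP#1 and 32.60, 44.35 and 35.62 FPKM after Si-FIBP#2. The high Scramble sample owed its rank to ENST00000589978, a short transcript at 7.14, 21.35 and 1.03 FPKM in Scramble and at most 1.38 FPKM after depletion. UBE2S shares 3506 bases with RPL28 on the other strand. Since use of strand is not given in the sources used here, reads from the pair cannot be told apart there, and RPL28 was at 864 ± 1.99 FPKM in Scramble, 946 ± 79.5 FPKM after Si-FIBP#1 and 907 ± 52.6 FPKM after Si-FIBP#2 (SD, n = 3 each). Its part in the UBE2S values was not tested.

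FBXO5 and PTTG1 both fell, FBXO5 by over 2-fold with each siRNA and PTTG1 after Si-FIBP#1. FBXO5 (ENSG00000112029; chromosome 6, 152970519 to 152983579, minus strand) encodes EMI1, which holds the APC/C inactive through S and G2 phase. Scramble samples had 41.31, 41.41 and 42.12 FPKM, Si-FIBP#1 samples 14.72, 13.54 and 16.70 FPKM, and Si-FIBP#2 samples 19.41, 16.12 and 17.29 FPKM. The depleted groups overlapped each other, well below Scramble. The log2 fold change was -1.42 after Si-FIBP#1 (95% interval -1.61 to -1.22, limma, adjusted p = 2.20e-06) and -1.20 after Si-FIBP#2 (-1.39 to -1.005, adjusted p = 6.50e-06).

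The 2 main FBXO5 transcripts of the 4 listed begin at or near the starts whose upstream sequences are printed above. ENST00000229758 starts at 152983018, beside the inner window with its 4 CCAAT matches and its CHR, and was at 28.48, 30.12 and 31.44 FPKM in Scramble, 9.47, 7.07 and 9.40 FPKM after Si-FIBP#1 and 9.58, 8.74 and 10.33 FPKM after Si-FIBP#2. ENST00000367241 starts at 152983579, at the outer window with none of the motifs, and was at 11.20, 10.20 and 9.21 FPKM in Scramble, 4.61, 5.97 and 6.47 FPKM after Si-FIBP#1 and 8.68, 6.85 and 6.21 FPKM after Si-FIBP#2. Both were lower in every depleted sample than in any Scramble sample. The share of the inner-start transcript in the gene's FPKM was 72.1 ± 2.90% in Scramble (SD, n = 3) and 56.0 ± 5.39% over the depleted samples (n = 6). This share was looked at after the values were seen. A two-sided exact permutation test, with both siRNAs pooled, gave p = 0.02381, the smallest this design allows. After Benjamini-Hochberg adjustment over the main transcripts of the 10 genes it was 0.0595, which did not pass. Passing would have needed more of the 10 genes at that smallest p, so the test does not decide whether the share changed. The main transcripts of ANAPC11, UBE2C and PTTG1 had the same p, with shares that differed by 4.17, -3.24 and 2.07 percentage points (depleted minus Scramble). Apportioning reads between transcripts that overlap is an estimate made by the authors' software.

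**Figure D2:**
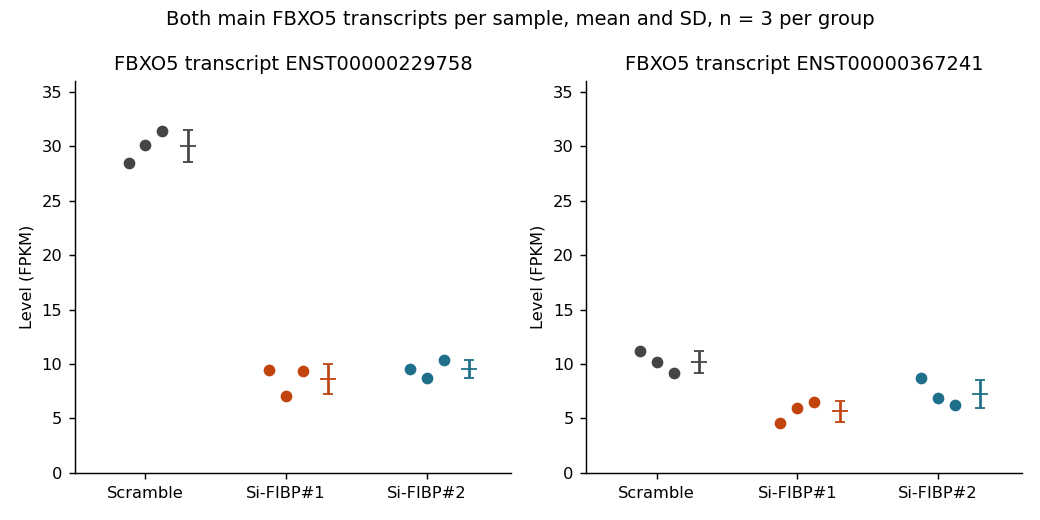
Level (FPKM, axes starting at 0) of both main FBXO5 transcripts in each sample, as points, with the mean and SD (n = 3 per group) as a bar. The transcript of the inner start (left) is at 28.48 to 31.44 FPKM in Scramble and at 7.07 to 10.33 FPKM after depletion, and that of the outer start (right) at 9.21 to 11.20 FPKM and 4.61 to 8.68 FPKM.

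PTTG1 (ENSG00000164611; chromosome 5, 160421822 to 160428744, plus strand) encodes securin, which holds separase inactive until the APC/C removes it. It was at 269.63, 262.39 and 271.08 FPKM in Scramble, 123.01, 139.38 and 125.91 FPKM after Si-FIBP#1, and 193.45, 187.99 and 205.28 FPKM after Si-FIBP#2. No 2 groups overlapped, and the Si-FIBP#2 samples lay between the others. The log2 fold change was -1.04 after Si-FIBP#1 (95% interval -1.17 to -0.92, limma, adjusted p = 1.03e-06) and -0.45 after Si-FIBP#2 (-0.58 to -0.33, adjusted p = 0.000157).

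The 4 core subunits differed little between groups. ANAPC1 (ENSG00000153107; chromosome 2, 111611639 to 111884690, minus strand), the largest scaffold subunit, was at 35.39, 32.41 and 32.24 FPKM in Scramble, 29.42, 29.90 and 32.18 FPKM after Si-FIBP#1 and 33.05, 32.42 and 34.81 FPKM after Si-FIBP#2. The log2 difference was -0.12 after Si-FIBP#1 (95% interval -0.26 to 0.01, adjusted p = 0.122) and 0.0040 after Si-FIBP#2 (-0.13 to 0.14, adjusted p = 0.964). ANAPC11 (ENSG00000141552; chromosome 17, 81890790 to 81900991, plus strand), the RING subunit that recruits the E2, was at 125.23, 117.82 and 110.95 FPKM in Scramble, 112.34, 119.81 and 104.03 FPKM after Si-FIBP#1 and 112.20, 127.16 and 116.66 FPKM after Si-FIBP#2. It was the most abundant of these 4 subunits, and its groups overlapped throughout, with log2 differences of -0.07 (95% interval -0.23 to 0.08) and 0.0079 (-0.15 to 0.17). CDC27 (ENSG00000004897; chromosome 17, 47117703 to 47189422, minus strand), which docks the activator, was at 35.22, 35.54 and 31.62 FPKM in Scramble, 38.62, 32.38 and 36.21 FPKM after Si-FIBP#1 and 36.55, 34.34 and 32.92 FPKM after Si-FIBP#2. Its log2 differences were 0.06 (95% interval -0.11 to 0.24) and 0.02 (-0.15 to 0.19). None of these intervals reached a 2-fold difference.

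ANAPC2 (ENSG00000176248; chromosome 9, 137174784 to 137188549, minus strand), the cullin-like subunit, was at 29.25, 24.37 and 24.15 FPKM in Scramble, 32.70, 28.39 and 30.35 FPKM after Si-FIBP#1 and 28.65, 31.50 and 30.48 FPKM after Si-FIBP#2. The first Scramble sample overlapped the depleted samples and the other 2 lay below them. The log2 difference was 0.23 after Si-FIBP#1 (95% interval 0.04 to 0.42, limma, adjusted p = 0.049984) and 0.22 after Si-FIBP#2 (0.03 to 0.41, adjusted p = 0.0588). The first of these passed the FDR threshold narrowly and lost it under 15 of 18 alternative settings, while the second gained it under 2 of 18. With both siRNAs together ANAPC2 was higher by 0.22 (adjusted p = 0.0283), which held under 12 of 18 settings but not without Scramble replicate 2, Scramble replicate 3, Si-FIBP#1 replicate 1 or Si-FIBP#2 replicate 3 (adjusted p = 0.118, 0.122, 0.0537 and 0.0501), under median ratio scaling (0.144) or with no filter (0.0616). Summed over the 4 subunits the level was 211 ± 13.1 FPKM in Scramble, 209 ± 5.36 FPKM after Si-FIBP#1 and 217 ± 7.69 FPKM after Si-FIBP#2 (SD, n = 3 each). The sum of the other 6 genes, FZR1 included, was 895 ± 5.54, 337 ± 15.6 and 463 ± 20.9 FPKM. UBE2C was 2.56 ± 0.16 times as high as ANAPC11, the subunit it works with, in Scramble, and 0.809 ± 0.06 and 1.04 ± 0.17 times after depletion.

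**Figure D3:**
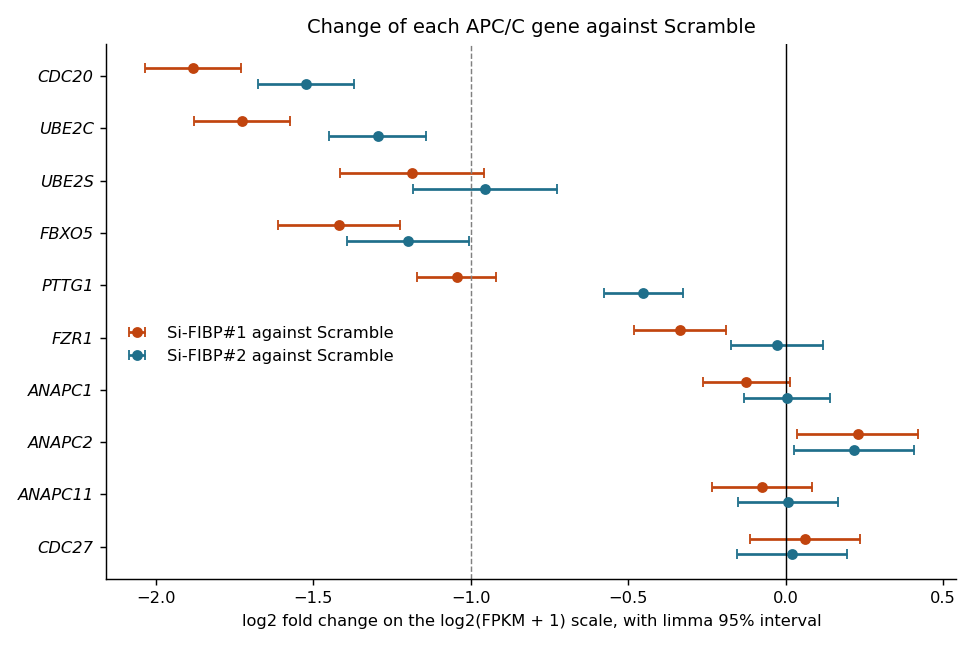
Log2 fold change against Scramble on the log2(FPKM + 1) scale for each of the 10 genes, with limma's 95% interval, for Si-FIBP#1 (orange) and Si-FIBP#2 (blue). The dashed line marks a 2-fold fall. CDC20 sits at -1.88 and -1.52, and the 4 core subunits sit between -0.12 and 0.23.

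The scale of the values matters for differences this small. The median log2 difference of all tested genes was 0.07 after Si-FIBP#1 and 0.11 after Si-FIBP#2. When samples were scaled by the median ratio to one another, these medians moved to 0.0051 and 0.0063, and after Si-FIBP#2 the calls of all genes went from 319 lower and 438 higher to 449 lower and 329 higher. Under that scaling ANAPC1, ANAPC11 and CDC27 were at -0.12, -0.11 and -0.10 after Si-FIBP#2, none past the FDR threshold, and ANAPC1 passed it after Si-FIBP#1 at -0.20 (adjusted p = 0.0184). CDC20 remained called lower with both siRNAs under every setting tried, as did UBE2C and FBXO5.

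The siRNAs differed in size of effect for 4 of the 10 genes. Si-FIBP#2 samples were higher than Si-FIBP#1 samples at an FDR below 0.05 for PTTG1 by 0.59 (limma, adjusted p = 0.000351), UBE2C by 0.43 (adjusted p = 0.00370), CDC20 by 0.36 (adjusted p = 0.00793) and FZR1 by 0.31 on the log2 scale (adjusted p = 0.0126). The FZR1 difference was lost with Ensembl transcripts only (adjusted p = 0.195) and without Si-FIBP#2 replicate 3 (adjusted p = 0.0543). In all, 4 of the 10 genes were higher, compared with 9.58% of all genes at that threshold. None of the 10 was called at over 2-fold between the siRNAs, against 0.561% of all genes in either direction. FBXO5 and UBE2S were higher after Si-FIBP#2 by 0.22 (95% interval 0.03 to 0.41, adjusted p = 0.122) and 0.23 (0.0042 to 0.46, adjusted p = 0.160), which did not pass after adjustment. FIBP itself did not differ detectably between the siRNAs (0.13, 95% interval -0.28 to 0.54, adjusted p = 0.686).

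None of the 10 other APC/C subunits was called, beside 3.11% lower and 2.55% higher of all genes after Si-FIBP#1 and 2.13% and 2.92% after Si-FIBP#2. At an FDR below 0.05, 2 were lower and 2 higher after Si-FIBP#1, beside 19.9% and 27.8% of all genes, and 4 were lower and 3 higher after Si-FIBP#2, beside 17.7% and 31.1%. Their median log2 differences were 0.06 and -0.05. ANAPC7, a subunit of the arm that holds CDC27, fell from 43.3 ± 0.08 FPKM to 24.5 ± 2.86 and 28.6 ± 0.68 FPKM (log2 -0.80 and -0.58, limma, adjusted p = 3.11e-05 and 0.000222). ANAPC10, which helps to bind the substrate, rose from 12.9 ± 1.05 FPKM to 16.97 ± 2.29 and 17.4 ± 1.61 FPKM (log2 0.36 and 0.40).

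Other APC/C inhibitors and spindle checkpoint genes were mostly lower. Of 7, 4 were called lower with each siRNA, beside 3.11% and 2.13% of all genes. At an FDR below 0.05, 6 were lower with each, beside 19.9% and 17.7%, and the medians were -1.22 and -1.08. MAD2L1, which binds CDC20 in the checkpoint complex, went from 30.2 ± 1.94 FPKM to 10.6 ± 2.28 and 13.1 ± 1.75 FPKM. Its checkpoint partner BUB1B went from 54.3 ± 3.72 FPKM to 19.5 ± 0.87 and 24.3 ± 3.07 FPKM. TRIP13, the ATPase that takes MAD2L1 out of that complex, fell by 1.22 and 1.35 on the log2 scale, and FBXO43, a relative of FBXO5, fell by 1.29 and 1.08. MAD2L1BP, the adaptor of TRIP13, had the highest log2 difference of the list, 0.07 and -0.21, with neither past the threshold.

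A list of 29 substrates of the APC/C other than PTTG1, chosen with earlier results of these data known, was lower. All 29 on this list were lower at an FDR below 0.05 with each siRNA, beside 19.9% and 17.7% of all genes. Of these, 26 were called lower after Si-FIBP#1 and 19 after Si-FIBP#2, beside 3.11% and 2.13%. The median log2 fold change was -1.45 and -1.11, beside 0.07 and 0.11 over all genes. RRM2, a subunit of ribonucleotide reductase, went from 132 ± 2.84 FPKM to 29.7 ± 2.34 and 36.9 ± 7.13 FPKM (log2 -2.12 and -1.83). TK1, thymidine kinase, fell by 1.84 and 1.52, and FOXM1, a transcription factor of mitotic genes, by 1.80 and 1.46. CDCA3 fell by 1.62 and 1.54, NEK2, a centrosome kinase, by 1.57 and 1.37, and CCNB1, cyclin B1, by 1.73 and 1.35 from 281 FPKM. The smallest mean fall was that of SKP2, an F-box protein of the SCF ligase, by 0.39 and 0.53. Between the siRNAs, 19 of the 29 were higher after Si-FIBP#2 at an FDR below 0.05, beside 9.58% of all genes, and 1 was lower, GMNN, the replication inhibitor geminin (log2 -0.59, adjusted p = 0.00767), named here after its values were seen.

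Separase itself, ESPL1, which securin restrains, was called lower with both siRNAs. It went from 25.5 ± 0.96 FPKM to 5.56 ± 0.43 and 8.54 ± 2.06 FPKM, log2 -2.02 and -1.501 (limma, adjusted p = 4.84e-06 and 3.22e-05). It was the only call among 6 genes of separase and cohesin, beside 3.11% and 2.13% of all genes called lower. At an FDR below 0.05, all 6 were lower after Si-FIBP#1 (median -0.63) and 5 after Si-FIBP#2 (median -0.44), beside 19.9% and 17.7% of all genes. STAG2, a cohesin subunit, had the smallest change of the list (-0.22 and -0.10).

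Other E2 enzymes and deubiquitinases of APC/C substrates made up a list of 7. At an FDR below 0.05, 2 were lower and 1 higher after Si-FIBP#1, beside 19.9% and 27.8% of all genes, and 1 was lower and 2 higher after Si-FIBP#2, beside 17.7% and 31.1%. None was called lower, beside 3.11% and 2.13% of all genes, and 1 was called higher with each siRNA, beside 2.55% and 2.92%. This was USP44, a deubiquitinase known to act on CDC20 in the checkpoint, which went from 2.18 ± 0.48 FPKM to 6.06 ± 1.01 and 6.42 ± 1.30 FPKM (log2 1.15 and 1.22, limma, adjusted p = 0.000411 and 0.000293). The lowest mean difference was that of USP37, -0.28 and -0.41. Among 14 cullin-RING ligase genes, a family related to the APC/C, CCNF, the F-box protein cyclin F, was the 1 gene called lower after Si-FIBP#1 (-1.14), beside 3.11% of all genes, and was at -0.64 after Si-FIBP#2. At an FDR below 0.05, 2 of the 14 were lower and 5 higher after Si-FIBP#1, and 2 lower and 7 higher after Si-FIBP#2, beside 19.9% and 27.8%, and 17.7% and 31.1%, of all genes. RNF7, a RING partner of cullins, had the highest mean difference (0.63 and 0.60). BTRC, whose product marks FBXO5 for destruction, rose from 6.46 ± 0.35 FPKM to 9.79 ± 0.52 and 10.4 ± 0.19 FPKM and was named after its values were seen. FBXW11, also on the list, was at 31.7 ± 1.02 FPKM in Scramble and 29.5 ± 2.29 and 36.2 ± 1.81 FPKM after depletion. Effects on FBXO5 protein were not tested.

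**Figure D4:**
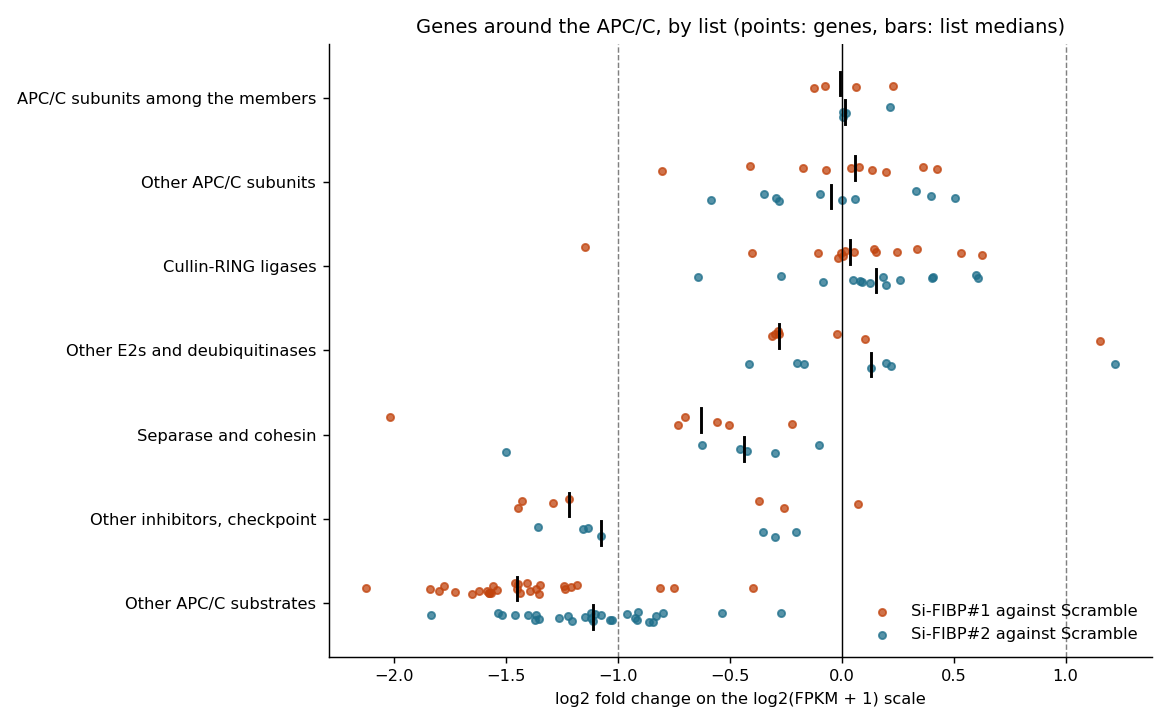
Log2 fold change against Scramble on the log2(FPKM + 1) scale for the 4 core subunits and 6 lists of genes around the APC/C. Points are genes (Si-FIBP#1 orange, Si-FIBP#2 blue, with vertical scatter only for legibility), black bars are list medians, and dashed lines mark 2-fold. The substrates center on -1.45 and -1.11 and the other subunits on 0.06 and -0.05.

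Across the 9 samples, the genes whose log2(FPKM + 1) values followed CDC20 most closely were TUBA1B (Pearson r = 0.999) and KIF18B (0.999), followed by TUBB4B, UBE2C and CCNB1 (0.998, 0.997 and 0.997). Among the other genes of the system, r with CDC20 was 0.989 for FBXO5, 0.963 for UBE2S and 0.909 for PTTG1, but 0.670 for FZR1, 0.488 for ANAPC1, 0.243 for ANAPC11, -0.273 for CDC27 and -0.757 for ANAPC2. Ranked by r with CDC20 among 14984 genes, FBXO5 was at 89, UBE2S at 476, PTTG1 at 1121 and FZR1 at 2837. The points are 3 groups of 3 samples, so r mainly describes the differences between groups.

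The transcripts of these genes were also compared one by one. Of those with a mean of at least 1 FPKM over the 9 samples, 5 of 5 of UBE2C, 3 of 4 of PTTG1 and 1 of 3 of UBE2S were lower in all depleted samples than in any Scramble sample, as were both of CDC20 and both of FBXO5. Over all 41012 transcripts at that level, 12.2% were lower in this way and 14.2% higher. For FZR1 1 of 3 was, the main one, for ANAPC1 none of 5 was, and for ANAPC11 1 of 9 was lower and 2 were higher in all depleted samples. No transcript of ANAPC2 or CDC27 was lower in this way, and 1 of each was higher, in both cases the main one. ENST00000323927 of ANAPC2 was at 14.69 to 17.23 FPKM in Scramble and 18.80 to 21.94 FPKM in depleted samples, and ENST00000066544 of CDC27 at 15.50 to 16.13 FPKM and 16.75 to 17.43 FPKM. The CDC27 difference is small, and its gene sum did not differ detectably. The next CDC27 transcript, MSTRG.11806.1, averaged 8.08 FPKM in Scramble, 7.36 FPKM after Si-FIBP#1 and 6.11 FPKM after Si-FIBP#2. Of 21 listed pseudogenes and close copies of the 10 genes, 18 stayed under 1 FPKM in every sample, and the others (both ANAPC1P2 entries and UBE2CP2) reached at most 4.46 FPKM. ANAPC11 overlaps ALYREF on the other strand by 797 bases, and ALYREF went from 131 ± 6.58 FPKM to 86.7 ± 4.23 and 77.3 ± 4.97 FPKM. Its part in the ANAPC11 values was not tested.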

How the data were processed

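H1299 RNA-seq was analysed in 9 samples, 3 per group, grouped by the sample labels. The submitters' processing notes name HISAT2 and StringTie, without versions here, and the genome build and annotation are not given in the sources used here. The authors deposited 1 table of FPKM per sample, for Ensembl transcripts and transcripts assembled from reads. That the unit is FPKM was inferred from the values. FPKM were summed over the transcripts of each gene, and the 14985 genes that reached 1 FPKM in 3 or more samples were tested on log2(FPKM + 1) with limma 3.58.1 in R 4.3.3, in 1 fit over all samples with a mean-variance trend and Benjamini-Hochberg adjustment over all genes. Fold changes on this scale understate the change of low genes. Calls needed a fold over 2 and an FDR below 0.05, as in the study's methods. Depth was estimated from steps between low values, and no counting interval can be given. The script was tested on simulated data.

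The genes, lists and tests were chosen with earlier results of these data known. Named genes were all 10 genes and FIBP, up to 6 called genes of each list by mean log2 fold change with its lowest and highest gene, the 5 genes most correlated with CDC20, and copies of the 10. Alternatives were other scalings (TPM or median ratio), a pseudocount of 0.1, other filters, only the compared groups in the fit, no trend, Ensembl transcripts only, no fold threshold, a block on the replicate number, and every fit with 1 sample left out. Gene positions are from GENCODE 29 (GRCh38) and promoters from RefSeq (GRCh38.p14). Python 3.11.15 was used with pandas 2.3.3, numpy 2.4.6 and scipy 1.17.1, and figures were drawn in matplotlib 3.10.9.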

Additional observations from a re-analysis of the deposited data

Results flagged for a closer look

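For 4 genes the effects of the siRNAs differed from each other, by the limma test of Si-FIBP#2 against Si-FIBP#1 in the same fit, with Benjamini-Hochberg adjustment over all genes. On the log2 scale PTTG1 was higher by 0.59 with Si-FIBP#2 (adjusted p = 0.000351), UBE2C by 0.43 (adjusted p = 0.00370), CDC20 by 0.36 (adjusted p = 0.00793) and FZR1 by 0.31 (adjusted p = 0.0126). In all of these genes each of the 3 Si-FIBP#2 samples lay above each of the 3 Si-FIBP#1 samples. The FZR1 difference was lost with Ensembl transcripts only (adjusted p = 0.195) and without Si-FIBP#2 replicate 3 (adjusted p = 0.0543).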

How the results depend on the processing

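The number of genes called of the 10 was 5 with Si-FIBP#1, 3 with Si-FIBP#2, 4 with both together and 0 between the siRNAs. Without the fold threshold these were 7, 5, 7 and 4. Leaving out each sample gave 5 to 5, 3 to 4, 3 to 4 and 0 to 0. Each of these changes was UBE2S crossing the 2-fold line: it was called with Si-FIBP#2 without Scramble replicate 1, Scramble replicate 3 or Si-FIBP#2 replicate 2, and was not called with both siRNAs together without Scramble replicate 2. Median ratio scaling gave 4 with Si-FIBP#2. CDC20, UBE2C and FBXO5 were called lower with both siRNAs, and UBE2S and PTTG1 with Si-FIBP#1, under every alternative run. Among the alternative log2 differences of single genes, 667 kept their direction and their side of the FDR threshold (whatever their fold), 26 lost significance, 6 gained it and 21 changed sign. All 21 were small differences of core subunits or FZR1. With TPM scaling, Si-FIBP#2 minus Si-FIBP#1 was 0.032 for ANAPC2 and 0.00085 for CDC27, and CDC27 was at 0.0074 with Ensembl transcripts only. With median ratio scaling CDC27 was at -0.015 with Si-FIBP#1, -0.099 with Si-FIBP#2 and -0.057 with both, and with Si-FIBP#2 ANAPC1 was at -0.12 and ANAPC11 at -0.11. Leaving out each sample, values with Si-FIBP#2 ran from -0.025 to 0.046 for ANAPC1, -0.042 to 0.051 for ANAPC11, -0.032 to 0.054 for CDC27 and -0.079 to 0.013 for FZR1. With both siRNAs they ran from -0.076 to 0.010 for ANAPC11 and -0.011 to 0.075 for CDC27, and between the siRNAs from -0.060 to 0.039 for ANAPC2 and -0.11 to 0.013 for CDC27. The causes were not tested. The higher ANAPC2 level with Si-FIBP#1 was lost in 15 of 18 alternatives (adjusted p up to 0.157). ANAPC1 passed the threshold with Si-FIBP#1 under TPM (adjusted p = 0.0478) and median ratio scaling (0.0184).

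The labels do not say whether the replicate numbers pair the samples. Same-numbered samples of different groups correlated in their deviations at -0.06 to 0.10 (9 pairs), and others at -0.14 to 0.05 (18 pairs). These ranges overlap but the same-numbered pairs reach higher, so a weak pairing is not excluded. With the replicate number as a block the calls were 5, 3, 4 and 0, ANAPC2 with Si-FIBP#1 missed the threshold (adjusted p = 0.0574) and UBE2S differed between the siRNAs (adjusted p = 0.0274). An estimated 603 fragments or more lay behind each value of the 10 genes.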
